A study of Mus musculus with 4 samples.

Results

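The guanylate-binding proteins (GBPs) are a family of large GTPases, and 10 of their mouse genes were followed here: Gbp2, Gbp2b, Gbp3, Gbp4, Gbp5, Gbp6, Gbp7, Gbp8, Gbp9 and Gbp10. All 10 have a row among the 24061 gene rows of the count table, and all 10 were among the 13022 genes with enough counts to be tested. The members were selected by family name, and the family was chosen from measured values: the level of Gbp2b in these libraries followed that of Maf. RNA came from regulatory T cells sorted from the Peyer's patches, the lymphoid follicles of the mouse small intestine, as a subset of the cells positive for CD4 and FoxP3. The labels describe 2 libraries from Mafflox/floxFoxP3-YFP-cre mice, whose Maf alleles are both floxed (labelled flox 2 and flox 1), and 2 from Maf+/+FoxP3-YFP-cre mice, whose Maf alleles are intact (labelled wt 2 and wt 1). All mice were aged 13 weeks, were on a C57BL/6 background at backcross generation 5, and carried FoxP3-YFP-cre, in which the FoxP3 gene drives Cre and a fluorescent protein, so the controls carry it too and it acts in regulatory T cells. About 40000 cells went into each sample, and nothing in the labels tells whether the libraries of 1 label came from separate animals.

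GBPs are induced by interferons, above all by interferon gamma, through transcription factors that bind gamma-activated sites (GAS) and interferon-stimulated response elements (ISRE) in promoters. IRF1 is one of those that bind the ISRE. The GBPs bind and hydrolyse GTP, assemble on the membranes of vacuoles that hold intracellular bacteria or parasites and on bacteria in the cytosol, and help to start inflammasome signalling. Gbp2b was long called Gbp1 in the mouse, and its induction by interferon is known to differ between inbred strains. Maf encodes c-Maf, a transcription factor of the basic leucine zipper class that is prominent in intestinal regulatory T cells. The genes lie in 2 clusters of mm10, with Gbp2b, Gbp2, Gbp3, Gbp5 and Gbp7 on chromosome 3 and Gbp4, Gbp6, Gbp8, Gbp9 and Gbp10 on chromosome 5.

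The stretch upstream of the RefSeq start is shown for Gbp2b (250 bases, chr3:142594597-142594846, plus strand) and for its neighbour Gbp2 (201 bases, chr3:142620413-142620613, plus strand, ending 12 bases past the GENCODE start of the gene), since these genes are adjacent and had opposite patterns, described below (RefSeq, GRCm38.p6). Capitals mark matches, on either strand, to an ISRE core (GAAA, any 2 bases, then GAAA again), a GAS site (TTCNNNGAA) or the half-site of a Maf recognition element (TGCTGA).
Gbp2b: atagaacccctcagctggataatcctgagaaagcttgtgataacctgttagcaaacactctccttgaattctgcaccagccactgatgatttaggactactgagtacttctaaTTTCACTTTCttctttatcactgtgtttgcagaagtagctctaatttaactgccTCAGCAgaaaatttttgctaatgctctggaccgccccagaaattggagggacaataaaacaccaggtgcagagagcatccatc
Gbp2: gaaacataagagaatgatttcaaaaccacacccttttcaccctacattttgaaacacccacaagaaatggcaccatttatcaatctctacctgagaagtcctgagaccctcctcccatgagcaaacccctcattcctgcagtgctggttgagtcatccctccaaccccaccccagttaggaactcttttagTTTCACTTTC
Both stretches held 1 ISRE core, read as TTTCACTTTC on the strand shown, with its first base at -137 from the RefSeq start in Gbp2b and at -59 in Gbp2. Gbp2b also held 1 Maf half-site on the opposite strand, at -83, and Gbp2 held none. The other 3 members with a RefSeq window, Gbp3, Gbp5 and Gbp7, each held at least 1 ISRE core in the 300 bases that run from 250 before to 50 after a start; Gbp5 and Gbp7 held 2 GAS sites each, and Gbp7 and the second start of Gbp3 held 1 Maf half-site each. Across all 32851 promoter windows of that table, 3.44% held the ISRE core, 8.3% a GAS site and 19.48% the Maf half-site, so that the half-site is common. A match describes letters only. Promoters of the 5 members on chromosome 5 were not analysed here.

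Maf itself, the targeted gene, went against 2 of the labels. Its counts were 15 in flox 2 and 40 in wt 2, against 2975 in flox 1 and 3071 in wt 1, or 0.725 and 1.98 CPM (counts scaled to the library's total, with edgeR's TMM factors) in flox 2 and wt 2, against 122 and 149 in flox 1 and wt 1. The libraries labelled wt 2 and flox 1 are therefore at odds with the targeted gene, and libraries are named by their labels throughout. If the titles of these 2 libraries had been exchanged, the comparison by number would be between genotypes and the comparison by label would mix them. A replicate field in the labels differs from the titles and gives 1 to both wt and 2 to both flox libraries. Whether it uses the same numbering is not stated, and the labels do not tell whether titles were exchanged. Gene totals were between 19368745 and 24687897 counts. In what follows, the libraries numbered 2 in their titles (low Maf) are set against those numbered 1 (high Maf); Maf level and anything else that differs between these pairs cannot be told apart. The members were chosen with this comparison in view, so its values are a description and carry no test. The comparison of labelled flox with labelled wt is tested further below. It did not choose the members, but it is not free of that choice. The gap by number lies within each label and adds to the spread used by the test, which could hardly call Gbp2b.

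Markers of the sorted cell were present in all libraries. Foxp3 had 104 and 103 CPM in flox 2 and wt 2, against 91 and 93.7 in flox 1 and wt 1, and Cd4 was between 919 and 997 CPM. Of the 6 regulatory T cell markers, Foxp3 and Il2ra (510 and 502 CPM in flox 2 and wt 2, against 401 and 454 in flox 1 and wt 1) were higher in both libraries numbered 2, Ctla4 (2079 and 1626 CPM in flox 2 and wt 2, against 3342 and 3340 in flox 1 and wt 1) was lower, and Cd4, Cd3e and Ikzf2 overlapped. Since GBPs are made in many cell types, markers of other cells were summed. The 5 genes for CD8 T and natural killer cells summed to 208 CPM in flox 2 and 168 in wt 2, against 79.9 in flox 1 and 56.6 in wt 1, separate by number. Within that list Nkg7 (118 and 101 CPM in flox 2 and wt 2, against 31 and 12.7 in flox 1 and wt 1) and Klrb1c (68.5 and 44.9 in flox 2 and wt 2, against 21.2 and 22.5 in flox 1 and wt 1) were higher in both libraries numbered 2, Cd8a and Cd8b1 overlapped, and Ncr1 was near the floor in all libraries, with 0 counts in both numbered 2, against 3 in flox 1 and 1 in wt 1. B cell markers summed to between 41.5 and 81.6 CPM, myeloid markers to between 12.1 and 101 CPM and epithelial markers to between 143 and 331 CPM, and these 3 sums overlapped by number. The part of any of these in the levels of the members was not tested, and in such bulk samples fewer cells of a type and less RNA per cell cannot be told apart.

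Gbp2b was almost absent where Maf was low and abundant where Maf was high. It had 51 counts in the library labelled flox 2 and 46 in wt 2, against 2839 in flox 1 and 2676 in wt 1. As CPM these were 2.47 and 2.27 in the libraries numbered 2, against 116 and 130 in those numbered 1. The level was 47.2-fold lower in flox 2 than in flox 1 (95% interval of the counts 35.8 to 63.5) and 57.2-fold lower in wt 2 than in wt 1 (42.8 to 78.3). Such intervals cover counting error only, not differences between animals. The mean log2 ratio over both labels was -5.68, the 11th lowest of 13022 genes tested, where Maf at -6.78 was the 4th lowest. Among the counts of all 10 members together, Gbp2b made up 0.195% in flox 2 (Wilson 95% interval 0.148 to 0.256) and 0.192% in wt 2 (0.144 to 0.256), against 9.57% in flox 1 and 10.6% in wt 1.

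**Figure D1:**
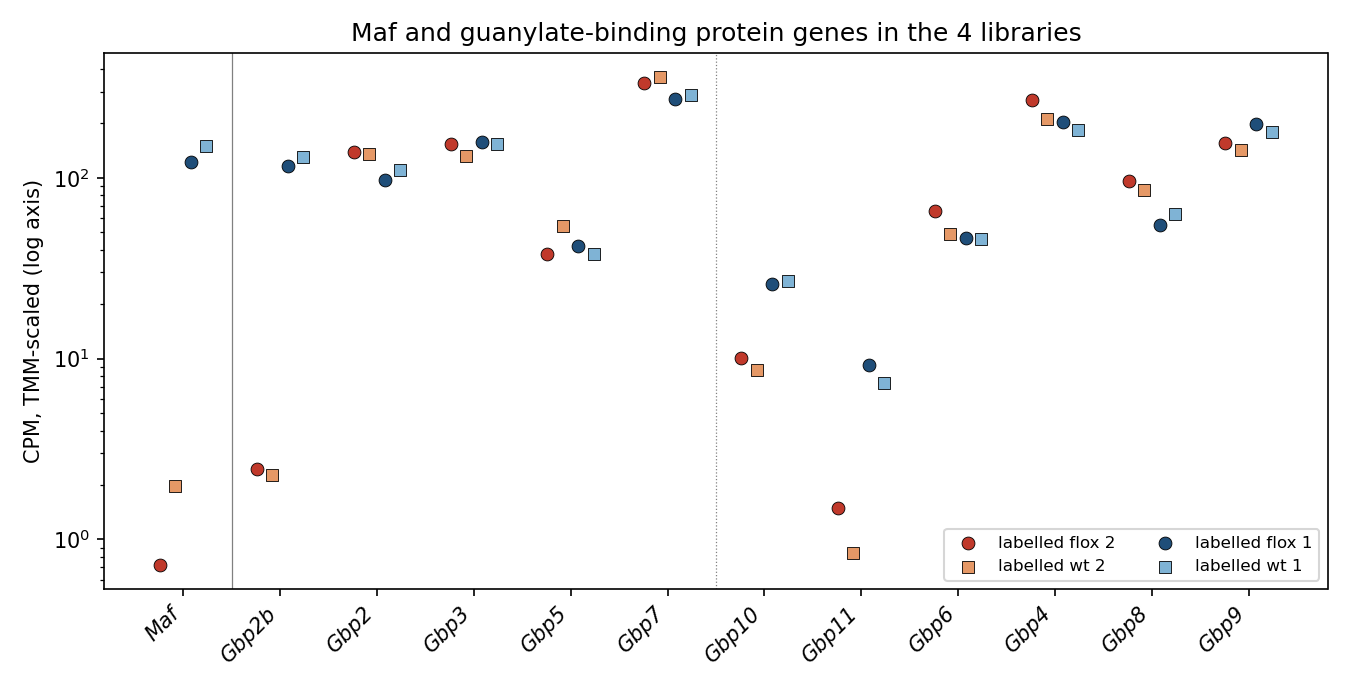
Level of Maf, the 10 family members and Gbp11 in each library as TMM-scaled CPM on a log axis, 1 point per library. Maf stands first, left of the solid line, followed by chromosome 3 genes up to the dotted line and chromosome 5 genes right of it. Gbp2b lies at 2.47 and 2.27 CPM in the libraries labelled flox 2 and wt 2 and at 116 and 130 CPM in flox 1 and wt 1, next to members such as Gbp3 and Gbp7 whose 4 points lie close together.

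Gbp10 was lower in the same libraries by a smaller amount. Gbp10, a GBP of the chromosome 5 cluster, had 10.1 CPM in the library labelled flox 2 and 8.65 in wt 2, against 25.8 in flox 1 and 27 in wt 1. Both libraries numbered 2 lay below both numbered 1, by 2.57-fold within flox (2.19 to 3.02) and 3.12-fold within wt (2.63 to 3.72). Gbp11, a relative outside the 10 that GENCODE lists as a polymorphic pseudogene, lies in the same cluster on the far side of Gbp6 and was low in the same libraries. It had 31 and 17 counts in flox 2 and wt 2, against 225 and 150 in flox 1 and wt 1, 6.15-fold lower within flox (4.21 to 9.26) and 8.68-fold lower within wt (5.24 to 15.3). Gbp2b and Gbp10 were the 2 members at least 2-fold lower within both labels, where 2.08% of all genes tested were. The family was chosen for the pattern of Gbp2b, and without it the count was 1 of 9. No member was at least 2-fold higher within both labels, where 1.24% of all genes were.

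The remaining 8 members stayed within 2-fold. Gbp2, the direct neighbour of Gbp2b and a GBP that coats parasite vacuoles, had 139 CPM in flox 2 and 135 in wt 2, against 96.8 in flox 1 and 111 in wt 1. It was thus higher where Gbp2b was low, 1.43-fold within flox (1.36 to 1.52) and 1.23-fold within wt (1.16 to 1.3). Gbp7, the most abundant member by CPM, had 334 and 360 CPM in flox 2 and wt 2, against 272 and 289 in flox 1 and wt 1. Gbp8 had 96.3 and 85.8 CPM in flox 2 and wt 2, against 55.1 and 63.4 in flox 1 and wt 1, and its ratio of 1.75 within flox was the nearest to 2-fold among these 8 members. Gbp4 and Gbp6 were also higher in both libraries numbered 2, Gbp4 with 270 and 211 CPM in flox 2 and wt 2, against 205 and 185 in flox 1 and wt 1, and Gbp6 with 65.6 and 48.6 CPM in flox 2 and wt 2, against 46.3 and 45.9 in flox 1 and wt 1. For Gbp6 the ratio within wt was 1.06 with an interval of 0.967 to 1.16, so that a difference there was not detectable at this depth.

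Gbp9 and Gbp3 lay on the other side by small amounts. Gbp9 had 156 CPM in flox 2 and 143 in wt 2, against 199 in flox 1 and 180 in wt 1, a ratio of 0.786 within flox and 0.795 within wt. Gbp3 had 154 and 132 CPM in flox 2 and wt 2, against 157 and 155 in flox 1 and wt 1, and its interval within flox, 0.932 to 1.02, included no difference. Gbp5, which takes part in activation of the NLRP3 inflammasome, had 37.8 CPM in flox 2 and 54.5 in wt 2, against 42 in flox 1 and 38 in wt 1, and is the 1 member whose libraries overlapped by number. Nlrp3 itself had 0 counts in every library. Counted by overlap, 4 of 10 members were lower in both libraries numbered 2 (Gbp2b, Gbp3, Gbp9 and Gbp10) where 22.5% of all genes were. Higher in both were 5 of 10 (Gbp2, Gbp4, Gbp6, Gbp7 and Gbp8) where 22.7% were. Without Gbp2b, whose pattern led to the choice of the family, 3 of 9 were lower and 5 of 9 higher. The median of the mean log2 ratio was 0.24 over the 10 members and 0.29 without Gbp2b, beside 0.01 over all genes tested. The summed level of the 10 was 1265 CPM in flox 2 and 1182 in wt 2, against 1215 in flox 1 and 1223 in wt 1. Without Gbp2b it was 1263 and 1179 CPM in flox 2 and wt 2, against 1098 and 1093 in flox 1 and wt 1.

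**Figure D2:**
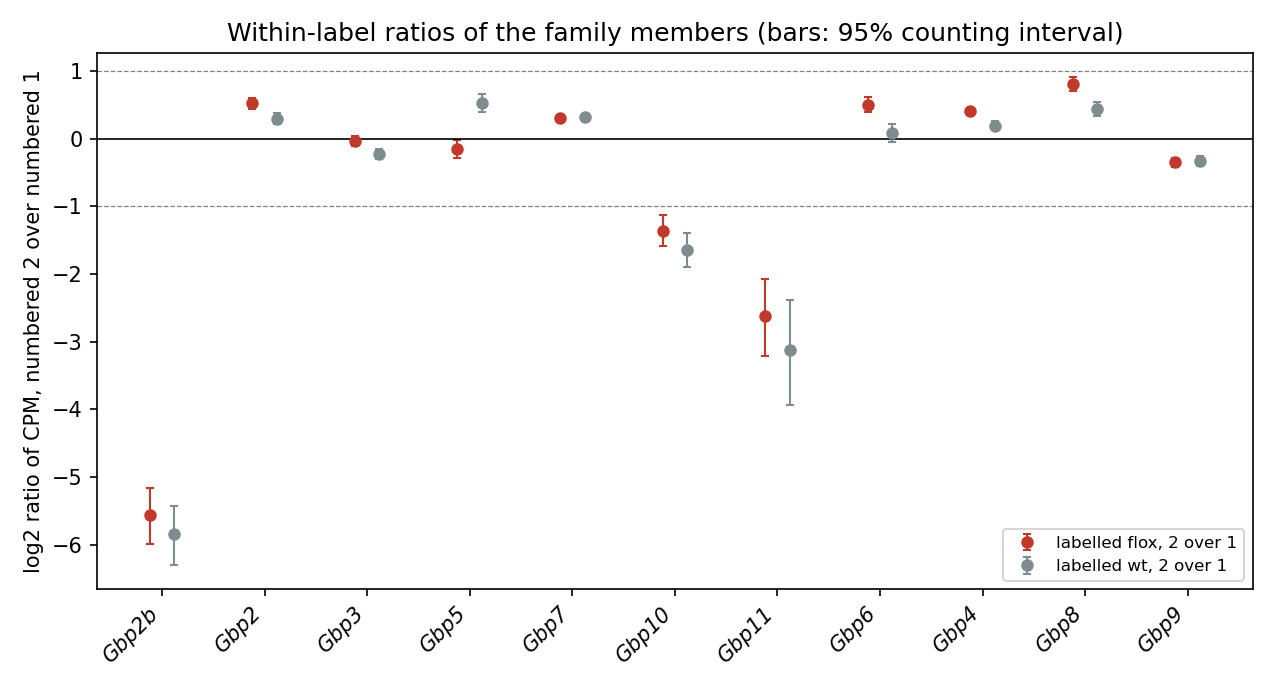
Log2 ratio of CPM, numbered 2 over numbered 1, within labelled flox (red) and within labelled wt (grey) for the 10 members and Gbp11. Bars are 95% counting intervals and dashed lines mark 2-fold; Gbp2b, Gbp10 and Gbp11 lie beyond the lower line in both labels and the other 8 members between the lines.

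How far the counts separate the members depends on how alike their transcripts are. Gbp2b and Gbp2 have coding sequences of 1767 bases each (GENCODE M21) that are identical at 82.51% of aligned bases, and 1.84% of the 50-base windows of the Gbp2b transcript also occur in a transcript of another gene, in each case Gbp2. Gbp2b was lower and Gbp2 higher in the libraries numbered 2. Gbp10 is different: its coding sequence is identical to that of Gbp6 at 98.36% of 1833 aligned bases, and 82.49% of its 50-base windows occur in other genes, 70.62% in Gbp6. For Gbp6 the share of such windows was 90.18%, with 62.31% in Gbp10. Both also share windows with Gm43302, a gene model that has no row in the count table and holds 79.25% of the windows of Gbp10 and all of the shared ones of Gbp6. Windows found in other genes made up 19.18% for Gbp11, 21.16% for Gbp8, and between 2.07% and 12.85% for the other members. Counts of Gbp10 and Gbp6 are therefore uncertain, since reads from one could have been placed on the other, assigned to a further model or left out as not unique. A coding stretch of 90 bases, from base 1556 to 1645 of each, is shown because it is the one where Gbp10 and Gbp6 differ most, with the 12 differing bases in capitals.
Gbp10: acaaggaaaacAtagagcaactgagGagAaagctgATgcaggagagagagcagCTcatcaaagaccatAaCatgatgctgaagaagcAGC
Gbp6: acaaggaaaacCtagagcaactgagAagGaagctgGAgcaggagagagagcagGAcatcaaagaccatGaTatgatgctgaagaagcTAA
Of the counts placed on Gbp10 and Gbp6 together, Gbp10 held 13.3% in flox 2 (Wilson 95% interval 11.7 to 15.1) and 15.1% in wt 2 (13.2 to 17.3), against 35.8% in flox 1 (33.6 to 38) and 37% in wt 1 (34.6 to 39.5). With both genes summed, the mean log2 ratio was -0.14, beside -1.5 for Gbp10 alone. With Gbp2 and Gbp2b summed it was -0.70, and with Gbp8 and Gbp9 summed -0.048, beside 0.62 for Gbp8 and -0.34 for Gbp9 alone. With these pairs summed, no member or pair stayed at least 2-fold lower. Gbp2b and Gbp2 are not close copies, with 1.84% of the Gbp2b windows shared. In the libraries numbered 2 their sum consists almost wholly of counts of Gbp2. Its ratio therefore says nothing about misplaced reads.

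The 2 clusters can be read gene by gene. In mm10 (GENCODE M21), the order on chromosome 3 is Gbp5 (chr3:142493978-142522344), Gbp7 (chr3:142530342-142550149), Gbp3 (chr3:142560026-142573209), Gbp2b (chr3:142594847-142619179) and Gbp2 (chr3:142620602-142638008), all on the plus strand. Gbp2b thus lies between Gbp3, with a mean log2 ratio of -0.13, and Gbp2, with 0.41. On chromosome 5, where all members are on the minus strand, Gbp10 (chr5:105215699-105239533) and Gbp11 (chr5:105323042-105346472) lie on either side of Gbp6 (chr5:105270702-105293698), whose mean log2 ratio was 0.29. The annotated bodies of Gbp8, Gbp9 and Gbp4 overlap one another there, so reads from shared exons may not have been assigned to 1 of them. Besides Gbp11, 16 other tested genes lie within 1 Mb of a member, 4 on chromosome 3 and 12 on chromosome 5. None of the 16 was at least 1.5-fold lower or higher within both labels, and the share of all genes past 1.5-fold was not computed. None was therefore past 2-fold, where 2.08% of all genes tested were lower and 1.24% higher, so 0 of 16 is near that share. Without overlap, 3 of the 4 on chromosome 3 were lower and 1 higher. On chromosome 5, of 13 genes with Gbp11 included, 5 were lower and 3 higher. Over all genes tested these shares were 22.5% and 22.7%. Without Gbp11, the mean log2 ratios of the neighbours were between -0.34 and 0.30 on chromosome 3 and between -1.8 and 0.75 on chromosome 5.

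**Figure D3:**
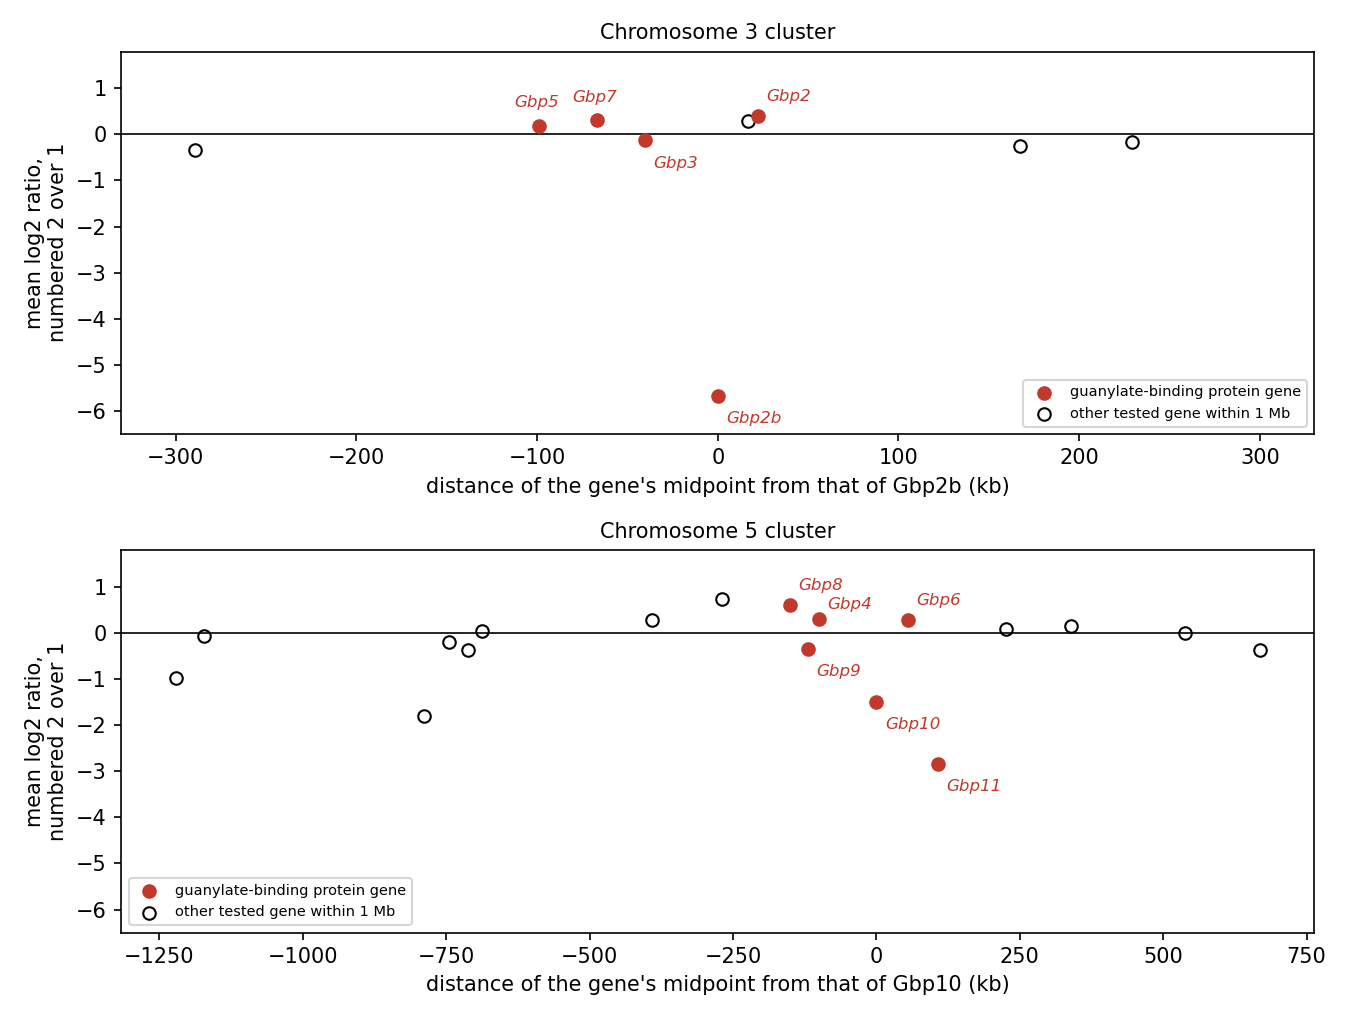
Mean log2 ratio, numbered 2 over numbered 1, for each tested gene of the 2 clusters and within 1 Mb of them, against the distance of its midpoint from that of Gbp2b (upper panel) or Gbp10 (lower panel) in kb. On chromosome 3, Gbp2b at -5.68 stands between neighbours within 0.41 of 0; on chromosome 5, Gbp10 and Gbp11 at -1.5 and -2.84 lie on either side of Gbp6 at 0.29.

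Per length of transcript, Gbp2b ranked with the highly expressed members where Maf was high and near the bottom where Maf was low. Its level was 0.873 and 0.805 CPM per kb in flox 2 and wt 2, against 41.2 and 46.1 CPM per kb in flox 1 and wt 1. Counting the 10 members and Gbp11, it was 10th of 11 in both libraries numbered 2, against 5th in flox 1 and 3rd in wt 1. In the libraries numbered 1, Gbp3 was first at 58.6 and 57.8 CPM per kb and Gbp7 second at 48.4 and 51.5. The ranges of Gbp2b, Gbp2, Gbp9 and Gbp4 overlapped between 38.5 and 46.1 CPM per kb in these libraries, so their order there does not go beyond the spread. Gbp8, Gbp6, Gbp5, Gbp10 and Gbp11 followed in that order in both. These values use 1 annotated transcript per gene, and the transcripts actually made in these cells are not known.

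By label, no member passed the test. Gbp2b averaged 59.3 ± 80.4 CPM in labelled flox and 66.2 ± 90.3 CPM in labelled wt (SD, n = 2 each), and its log2 fold change was -0.15 with an SE of 2.38 (adjusted p = 1, Benjamini-Hochberg correction of edgeR's quasi-likelihood test). Its spread within a label was far larger than the difference between the labels, as was that of Maf (log2 fold change -0.30, SE 2.63, adjusted p = 1). Gbp10 had 17.9 ± 11.1 CPM in labelled flox and 17.8 ± 13 in labelled wt (log2 fold change 0.01, SE 0.72, adjusted p = 1). Gbp4 had the smallest unadjusted p of the 10 (0.176), with 238 ± 46.5 CPM in labelled flox and 198 ± 18.7 in labelled wt (log2 fold change 0.26, SE 0.17, adjusted p = 1). Of the 10 members, 0 passed the edgeR test, where 0.00768% of all genes did (1 gene), 0 reached 0.05 without adjustment, and DESeq2, edgeR's likelihood ratio test and limma-voom each called 0. None of the 10 had both labelled flox libraries above both labelled wt libraries, where 13.2% of all genes did, and none had both below, where 13.8% did. With 2 libraries against 2 whose Maf level differs within each label, a p over the threshold does not show that the labels are alike.

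The genes whose pattern over the 4 libraries was most like that of Gbp2b were found by distance between log2(CPM + 1) values centred on each gene's mean. Maf was first of all, at a distance of 0.939, but 14th with a pseudocount of 0.1 in place of 1. The family was chosen because Gbp2b followed Maf in these libraries, so a high rank of Maf was given by that choice. The next named genes were Cpne7, a calcium-dependent membrane-binding protein (1.25), Il10, an anti-inflammatory cytokine (1.27), Rnase4, a secreted ribonuclease (1.42), Sccpdh (1.43) and Ccl20, the chemokine ligand of CCR6 (1.5). Cpne7 had 1.55 and 0.296 CPM in flox 2 and wt 2, against 34.9 and 28.9 in flox 1 and wt 1, and Ccl20 had 5.32 and 5.93 in flox 2 and wt 2, against 85.3 and 86.4 in flox 1 and wt 1. Il10 had 26.8 and 24.5 CPM in flox 2 and wt 2, against 385 and 429 in flox 1 and wt 1. Rnase4 had 1.69 and 3.16 CPM in flox 2 and wt 2, against 51.3 and 46.5 in flox 1 and wt 1, and Sccpdh had 10.2 and 6.62 in flox 2 and wt 2, against 113 and 149 in flox 1 and wt 1. For each of these genes both libraries numbered 2 lay far below both numbered 1. The genes were picked for likeness to Gbp2b, so this was given by the choice. Within the family, Gbp11 was 53rd and Gbp10 106th in this order, Gbp9 came 1477th, and Gbp8, at 12512th, was the least alike. With the pseudocount of 0.1, Gbp11 was 70th and Gbp10 204th, and Mmp9 stood among the 6 in place of Ccl20. Over 4 libraries, likeness of this kind says nothing of shared function or control.

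No other interferon-induced GTPase of the list below, apart from Gbp11, was 2-fold lower where Gbp2b was low. Over all genes tested, 2.08% were at least 2-fold lower within both labels and 1.24% higher, so 0 in a short list is near that share. Immunity-related GTPases (IRGs) and giant GTPases gave 10 tested genes with Gbp11 among them; of the other 9, none was 2-fold lower or higher within both labels, 0 were lower and 5 higher without overlap (22.5% and 22.7% of all genes tested were), and the median of the mean log2 ratio was 0.14. Gm12250, which encodes IRGB10, had 41.4 and 44.3 CPM in flox 2 and wt 2, against 25.2 and 28.2 in flox 1 and wt 1. Irgm1, a regulator of the IRG proteins, had 71.5 and 82.4 CPM in flox 2 and wt 2, against 56.2 and 56.9 in flox 1 and wt 1, and Tgtp1 had 15.8 and 12.8 in flox 2 and wt 2, against 10.4 and 11 in flox 1 and wt 1. All 3 were higher in both libraries with low Gbp2b. The giant GTPase Gvin1 had 0 counts in every library.

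The genes that carry the interferon gamma signal varied in both directions. Ifng, the ligand, had 20.6 CPM in flox 2 and 6.08 in wt 2, against 5.36 in flox 1 and 4.28 in wt 1, so that the library labelled flox 2 stood highest. Ifngr1, the ligand-binding receptor chain, had 1113 and 949.8 CPM in flox 2 and wt 2, against 1175 and 1213 in flox 1 and wt 1. Ifngr2, the signalling chain of the receptor, had 46 and 40.4 CPM in flox 2 and wt 2, against 81.7 and 96.3 in flox 1 and wt 1. Jak2, the kinase bound to that chain, had 290 and 309 CPM in flox 2 and wt 2, against 558 and 550 in flox 1 and wt 1. Both were lower in each library numbered 2, with ratios of 0.563 within flox and 0.419 within wt for Ifngr2 and of 0.52 and 0.562 for Jak2, and neither reached 2-fold within both labels.

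Downstream of the receptor, Irf1 overlapped by number. It had 297 and 266 CPM in flox 2 and wt 2, against 329 and 277 in flox 1 and wt 1. Socs3, a feedback inhibitor of cytokine receptors, had 321 and 338 CPM in flox 2 and wt 2, against 425 and 436 in flox 1 and wt 1. Over the 13 tested genes of this list, 5 were lower and 3 higher without overlap, where 22.5% and 22.7% of all genes tested were. None passed 2-fold within both labels, where 2.08% of all genes were lower and 1.24% higher. The median of the mean log2 ratio was -0.10.

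No other target of interferon gamma or type I interferon in the lists below reached 2-fold within both labels. This is near the share over all genes tested, 2.08% lower and 1.24% higher. Of 17 tested targets of interferon gamma, 2 were lower and 7 higher without overlap, beside 22.5% and 22.7% of all genes tested (median 0.14). Nlrc5, which drives class I histocompatibility genes, had 303 and 295 CPM in flox 2 and wt 2, against 240.2 and 204 in flox 1 and wt 1. Psmb9, a subunit of the immunoproteasome, had 121 and 131 CPM in flox 2 and wt 2, against 101 and 94.4 in flox 1 and wt 1. Ciita, the activator of class II genes, had 3.38 and 3.11 CPM in flox 2 and wt 2, against 7.04 and 4.13 in flox 1 and wt 1. Serpina3g, a serine protease inhibitor, had 248 and 138 CPM in flox 2 and wt 2, against 152 in both flox 1 and wt 1.

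Of 25 tested targets of type I interferon, 0 were lower and 11 higher without overlap, beside the same 22.5% and 22.7% of all genes (median 0.19). Oas3, a sensor of double-stranded RNA, had 42.2 and 47.3 CPM in flox 2 and wt 2, against 24.3 and 19.4 in flox 1 and wt 1. Ifit1, which binds foreign RNA, had 16.4 and 25.6 CPM in flox 2 and wt 2, against 15.6 and 10.5 in flox 1 and wt 1. Ifih1, which encodes the RNA sensor MDA5, had 44.1 and 45.3 CPM in flox 2 and wt 2, against 33.8 and 29.4 in flox 1 and wt 1, and Oas1a had 21.9 and 25.1 in flox 2 and wt 2, against 19.3 and 15.8 in flox 1 and wt 1.

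Among 14 tested genes of the inflammasome and of autophagy that GBPs act with, none reached 2-fold within both labels. Over all genes, 2.08% were lower and 1.24% higher by that measure. Without overlap, 4 of the 14 were lower and 2 higher (22.5% and 22.7% of all genes were), and the median was 0.02. Casp1, the inflammasome protease, had 75.3 and 61.3 CPM in flox 2 and wt 2, against 66 and 55.2 in flox 1 and wt 1. Sqstm1, an autophagy receptor, had 549.8 and 595 CPM in flox 2 and wt 2, against 691 and 655 in flox 1 and wt 1. Atg7, an enzyme of autophagosome formation, had 37.1 and 39.2 CPM in flox 2 and wt 2, against 41.1 and 47.4 in flox 1 and wt 1. Gabarapl2, a protein of the autophagosome membrane, had 184 and 165 CPM in flox 2 and wt 2, against 154 and 159 in flox 1 and wt 1. By label, 0 of the 79 tested genes of these 5 lists passed the edgeR quasi-likelihood test. An unadjusted p under 0.05 was found for 2 of them (2.53%), beside 1.98% of all genes, namely Cxcl10 (0.00541) and Ifi44 (0.0421), both named after their values were seen.

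**Figure D4:**
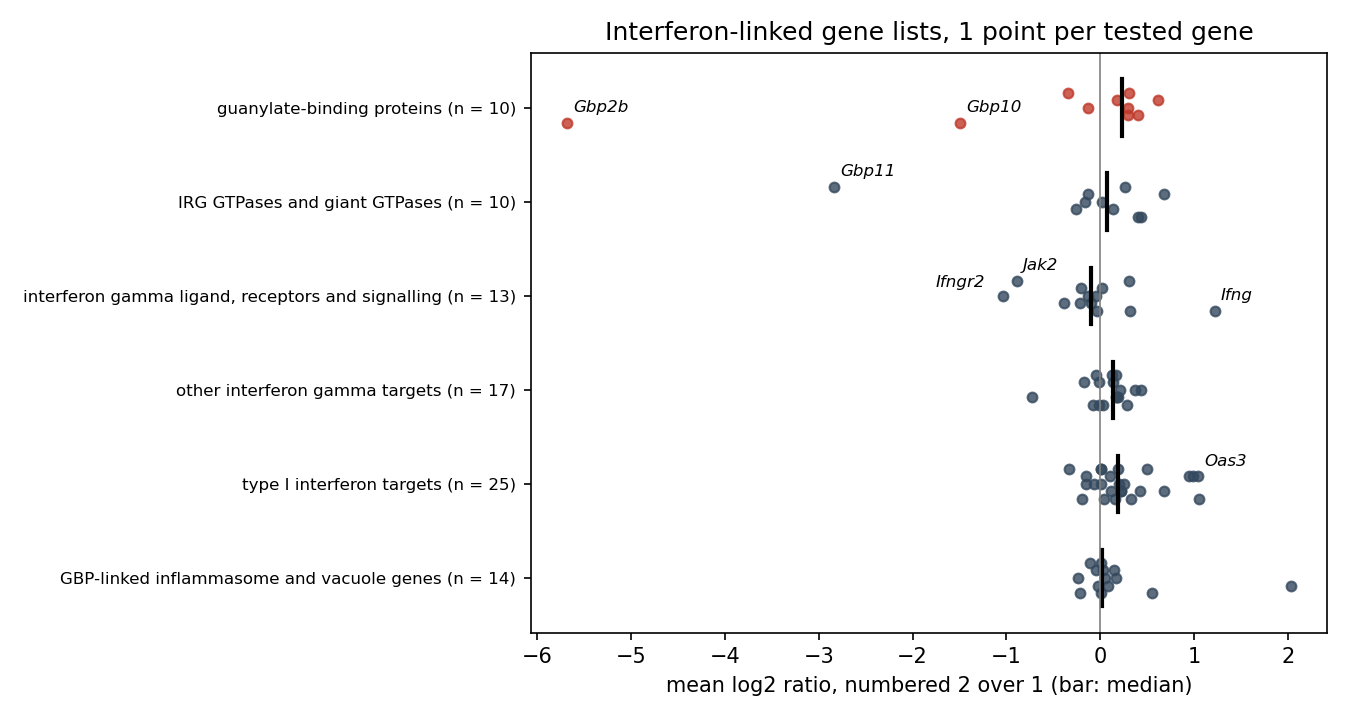
Mean log2 ratio, numbered 2 over numbered 1, of each tested gene in the family and in 5 lists of interferon-linked genes, with a bar at the median of each list. Gbp2b at -5.68, Gbp11 at -2.84 and Gbp10 at -1.5 lie apart at the low end, while the list medians lie between -0.10 and 0.24.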

How the data were processed

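The submitters' processing notes name build mm10 and the tools HTSeq 0.6.1, TopHat2 2.1.1 and edgeR 3.14, with settings, strand use and annotation not given in the sources used here. Deposited by the authors were raw counts per gene symbol (24061 gene rows, plus 5 summary rows with 66.6% to 67.2% of each column, left out here) and a filtered table of normalized values, a signal adjusted to library size, used here as an alternative only.

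The test of labelled flox over labelled wt was edgeR 4.0.16 in R 4.3.3 (filterByExpr, which left 13022 genes; TMM; robust glmQLFit; glmQLFTest), adjusted over all genes by Benjamini-Hochberg with a threshold of 0.05. Its p-values reflect spread among these libraries alone, possibly technical. Log2 ratios by number used a prior count of 0.5. Ratio intervals are exact binomial ones at 95%. Alternatives included DESeq2 1.42.0 and limma 3.58.1, and the test was checked on simulated data. The replicate field of the labels, which gives 1 to both wt and 2 to both flox libraries, was not used; replicate numbers come from the titles.

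The members and lists were chosen with earlier results of these data known. Named were Maf, the members, Gbp11, the 6 genes most like Gbp2b (mean log2 CPM not under 2, without predicted genes, pseudogenes and receptor segments), up to 4 genes per list (first those called, then those at least 2-fold within both labels, then by size of the mean log2 ratio with the same minimum), neighbours at least 1.5-fold within both labels (none), and Irf1, Ifng, Ifngr1 and Ifngr2; some genes are not reported here. Sequences are from RefSeq (GRCm38.p6; 5 of 10 members had a promoter) and GENCODE M21, both of build mm10. Proteins were not analysed here.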

Additional observations from a re-analysis of the deposited data

Results flagged for a closer look

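Gbp5 went in opposite directions within the 2 labels. The library labelled flox 2 had 0.900 times the level of flox 1 (95% counting interval 0.819 to 0.989), while wt 2 had 1.43 times the level of wt 1 (1.31 to 1.57). The difference was not tested, since each label holds 1 library of each number and an interaction term would leave no residual degrees of freedom.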

How the results depend on the processing

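By label, 0 of the 10 members were called under each alternative run, and the count of all genes called was 1 with edgeR's quasi-likelihood test, 2 with no filter on low counts, 14 by DESeq2, 12 by the likelihood ratio test and 0 by limma-voom. Leaving out 1 library in turn gave a range of 0 to 0; this leaves 1 library in a label, which is then assumed to vary like the others. Same-numbered libraries deviated together (correlation 0.23 across genes), but nothing in the labels says that a number marks a shared animal or day; with the number as a replicate block 1 gene and 0 members were called, and Gbp4 had an unadjusted p under 0.05, as did 2 members without flox replicate 1. Without scaling the log2 fold change of Gbp8 was -0.011, by limma-voom it was -0.028 and with the replicate block -0.016, against 0.02; for Gbp2b limma-voom gave 0.15, against -0.15. When 1 library was left out, the log2 fold change by label lay between -6.69 and 4.95 for Maf, -4.74 and 4.70 for Gbp2b, -1.44 and 2.67 for Gbp11, -0.82 and 1.05 for Gbp10, -0.43 and 0.37 for Gbp8, -0.45 and 0.078 for Gbp5, -0.34 and 0.18 for Gbp2, -0.028 and 0.47 for Gbp6, -0.25 and 0.073 for Gbp7, and -0.044 and 0.31 for Gbp9. Each label holds 1 library with high and 1 with low Maf. Leaving 1 out therefore unbalances the labels for any gene that differs by number, such as Maf and Gbp2b. Other causes were not tested.

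By number, 2 members were at least 2-fold lower under each alternative run except with relatives summed (Gbp2 with Gbp2b, Gbp6 with Gbp10, Gbp8 with Gbp9). That run gave 0 and a mean log2 ratio of -0.70 in place of Gbp2b's -5.68. By its construction it adds the counts of Gbp2 to those of Gbp2b. Runs without 1 library could not lower the count, since they judge only the label that stays complete. The share of all genes at least 2-fold lower was 2.08%, and 1.41% in the authors' deposited normalized values, 3.75% with no filter, 4.32% to 7.4% when 1 library was left out, which leaves 1 label, and 5.61% between the 2 libraries whose Maf level goes with their label, flox 2 and wt 1 (chosen after seeing the data). Maf was 14th in likeness to Gbp2b with a pseudocount of 0.1 on CPM in place of 1. The depth limits statements on Gbp11, with 17 counts in its lowest library.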
